A study of Mus musculus with 44 samples.

Results

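Skeletal muscle genes were followed in cultures of mouse calvarial osteoblasts, the bone-forming cells of the skull cap. The 9 genes were Acta1, Actc1, Tnnc1, Tnnt3, Tnni1, Myl1, Mylpf, Myog and Ckm, and their members were all probe sets on 3 Affymetrix arrays (called A, B and C after the endings of the sample titles) whose gene symbol was one of these 9. They came to 19 probe sets of 36701, and to 9 genes of 15964: 12 probe sets on array A, 1 on B and 6 on C. The genes were chosen by name, with earlier results of these data known. Cultures came from newborn mice (labelled 7 day) and were grown in DMEM with fetal calf serum. In the day 17 groups the transgene was pOBCol2.3GFP, and from day 7 on the medium contained ascorbic acid together with beta-glycerophosphate. In the day 7 groups it was pOBCol3.6GFP, without additions. Both transgenes drive green fluorescent protein (GFP) from fragments of a type I collagen promoter, and the longer fragment is known to be active earlier in the osteoblast lineage and in more kinds of connective tissue cell than the shorter one. The fractions of a sort share an experiment name. On each day there were 3 groups: unsorted culture, sorted GFP-positive cells and sorted GFP-negative cells. Each group had 3 RNA samples, 1 from each of Exp100, Exp105 and Exp106 at day 17 and of Exp99, Exp101 and Exp103 at day 7. Nothing in the labels says that the experiments used separate litters, so the p-values reflect only how far these samples spread, which may be technical. Day, transgene and additions changed together and cannot be told apart, and in bulk RNA fewer cells of a type and less RNA per cell cannot be told apart either.

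The sarcomere is the contractile unit of striated muscle, in which thick filaments of myosin slide along thin filaments of actin. Acta1 and Actc1 encode the skeletal and cardiac alpha-actins of the thin filament, and embryonic and regenerating skeletal muscle makes both. Troponin sits on the thin filament and opens it to myosin when calcium arrives: Tnnc1 is the calcium-binding subunit of slow skeletal and heart muscle, Tnni1 the slow skeletal inhibitory subunit and Tnnt3 the fast skeletal subunit that binds tropomyosin. Myl1 is an alkali light chain and Mylpf the regulatory light chain of fast skeletal myosin. Myog (myogenin) is a transcription factor of muscle differentiation and Ckm the muscle creatine kinase, so neither is a structural part of the sarcomere. In GRCm38.p6 the genes lie at chr8:123891758-123894775 (Acta1), chr2:114047282-114052875 (Actc1), chr14:31208312-31211729 (Tnnc1), chr7:142498771-142516213 (Tnnt3), chr1:135783033-135810989 (Tnni1), chr1:66924295-66947932 (Myl1), chr7:127208848-127214288 (Mylpf), chr1:134290004-134292548 (Myog) and chr7:19411094-19421583 (Ckm).

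The promoters of the 5 genes with a probe set that passed a test below are printed because each was called lower at day 17 in at least 1 kind of cell. The letters are RefSeq's for build GRCm38.p6, from 250 bases before to 50 bases after an annotated start, 5′ to 3′ along the gene. Capitals mark matches, on either strand, to the E-box CANNTG, to TATAAA, to the CArG box and to the site of MEF2 factors. The windows of Myl1 and Mylpf surround a start that lies inside the annotated gene.
Acta1 promoter, chr8:123894726-123895025, minus strand: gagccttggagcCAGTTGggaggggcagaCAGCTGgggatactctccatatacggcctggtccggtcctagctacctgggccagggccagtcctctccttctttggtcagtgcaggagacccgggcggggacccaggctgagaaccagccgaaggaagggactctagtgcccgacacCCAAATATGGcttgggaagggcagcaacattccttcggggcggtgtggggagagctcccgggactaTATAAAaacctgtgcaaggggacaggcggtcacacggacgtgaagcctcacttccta
Actc1 promoter, chr2:114052826-114053125, minus strand: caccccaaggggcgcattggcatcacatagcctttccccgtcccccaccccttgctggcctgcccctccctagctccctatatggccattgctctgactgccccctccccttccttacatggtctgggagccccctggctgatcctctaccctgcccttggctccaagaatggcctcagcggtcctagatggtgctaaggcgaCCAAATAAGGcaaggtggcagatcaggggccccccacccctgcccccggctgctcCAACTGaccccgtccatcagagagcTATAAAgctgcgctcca
Tnnc1 promoter, chr14:31208062-31208361, plus strand: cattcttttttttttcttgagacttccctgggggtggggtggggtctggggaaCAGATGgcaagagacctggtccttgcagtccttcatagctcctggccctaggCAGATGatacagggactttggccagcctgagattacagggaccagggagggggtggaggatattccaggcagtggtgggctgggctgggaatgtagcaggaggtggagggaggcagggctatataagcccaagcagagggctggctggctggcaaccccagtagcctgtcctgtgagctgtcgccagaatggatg
Myl1 promoter, chr1:66945007-66945306, minus strand: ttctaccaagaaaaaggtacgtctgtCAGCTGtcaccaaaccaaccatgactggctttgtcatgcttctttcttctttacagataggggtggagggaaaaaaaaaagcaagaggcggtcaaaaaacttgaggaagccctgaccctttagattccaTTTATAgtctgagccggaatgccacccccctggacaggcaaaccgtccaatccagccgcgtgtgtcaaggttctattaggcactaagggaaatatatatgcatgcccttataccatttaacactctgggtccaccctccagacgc
Mylpf promoter, chr7:127211358-127211657, plus strand: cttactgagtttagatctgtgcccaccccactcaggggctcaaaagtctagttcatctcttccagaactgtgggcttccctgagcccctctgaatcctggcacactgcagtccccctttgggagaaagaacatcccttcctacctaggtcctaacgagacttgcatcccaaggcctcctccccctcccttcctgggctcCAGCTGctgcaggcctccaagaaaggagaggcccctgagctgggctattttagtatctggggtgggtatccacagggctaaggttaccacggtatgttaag
The E-box, the sequence class bound by myogenin and MyoD, was in the windows of all 8 members that the table holds, and also in 72.3% of all 32851 windows. Its form CAGCTG was in the windows of 5 of the 8 genes (Acta1, Ckm, Myl1, Mylpf and Tnni1) and in 16.3% of all windows. TATAAA was in 3 (Acta1, Actc1 and Myl1) and in 13.6% of all windows. The CArG box, bound by serum response factor, was in Acta1 (CCAAATATGG, 73 bases before the start) and Actc1 (CCAAATAAGG, 47 bases before it), and in 1.63% of all windows. No member window matched the MEF2 site, searched for as YTAWWWWTAR (Y is C or T, W is A or T, R is A or G), which 3.19% of all windows held. Near matches did not count: the Myog window holds ctatatttat, which differs from that pattern in its last base only. These matches describe letters only. Tnnt3 is named only.

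Values below are probe set intensities after quantile normalisation within each array type, and differences are of log2(intensity + 32). Only probe sets brighter than the median of their array on 3 or more arrays entered a fit. That held for 14 of the 19 member probe sets among the 12 sorted samples, where 22099 probe sets were tested, and for 9 of the 12 on array A among all 18 samples, where 7455 were. Neither Tnnt3 probe set passed. A difference was called at an adjusted p under 0.05 (limma, Benjamini-Hochberg over all probe sets tested). Trimmed means of the deposited intensities ran from 1069 to 1766 on array A, 1367 to 1723 on B and 1259 to 1606 on C. Experiment Exp106 stood apart: on array A its samples correlated at 0.839 with the other samples of their groups, whereas the others correlated at 0.943 with each other, and results that rest on it are given with and without it.

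At day 7 most of the chosen members lay lower in the GFP-positive than in the GFP-negative fraction, though no difference passed the test. Myl1, Tnnc1, Mylpf, both alpha-actins and 2 of the 3 Tnni1 probe sets followed that order, and Ckm did not. Of 19 member probe sets 14 had a difference below 0, with a median of -0.81 on the log2 scale, against 0.00 over all probe sets tested. Every GFP-positive sample lay below every GFP-negative one in 8 of the 19 and above in 2, while 3.87% and 4.04% of all probe sets on the arrays did so. No difference passed the test: limma called 0 of 22099 probe sets (0%) in this comparison, members included, with 7 of the 14 tested members and 396 of all probe sets at an unadjusted p under 0.05. Among sorted samples Actc1 101028_i_at, Acta1, Tnnc1 and Mylpf 170347_f_at were brighter than the median only in the 3 GFP-negative samples of day 7. They met the brightness filter through the group in which they were high, 3 of them are among those 7, and that count is therefore no support for a difference.

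Actc1 had the widest gap among the members. Its probe set 101028_i_at read 36.8, 10.7 and 11.5 in the GFP-positive cells of Exp99, Exp101 and Exp103, against 653, 573 and 1930 in the GFP-negative cells. The GFP-positive values lie near the lowest deposited value of 10, so the size of the difference depends on the added constant: -4.21 ± 1.15 on the log2 scale (SE, n = 3 each), -5.17 with a constant 4 times smaller and -2.82 with one 4 times larger. Its adjusted p was 1 in limma and 0.0168 without a variance trend, where 2 probe sets in all were called. With no probe set filtered out its adjusted p was 0.018, and it was the only one called of 36701 (0.00272%). The second Actc1 probe set, 101029_f_at, carries the suffix that the manufacturer gives to probes shared within a sequence family, and other actins can bind it. It read 5699, 6190 and 8286 in GFP-positive cells and 8169, 7283 and 12648 in GFP-negative cells, which overlap, with a difference of -0.45 ± 0.27.

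Acta1 (100381_at) read 552, 375 and 551 in the GFP-positive samples of Exp99, Exp101 and Exp103, against 1119, 1164 and 2290 in the GFP-negative ones. All GFP-positive values were below their array's median and all GFP-negative values above it. The difference was -1.51 ± 0.74 (limma adjusted p = 1).

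Tnnc1 (101063_at) read 129, 297 and 102 in GFP-positive cells, against 808, 990 and 953 in GFP-negative cells. The fractions did not overlap, and the difference of -2.30 ± 0.78 was 4.93-fold lower in GFP-positive cells (limma adjusted p = 1). Tnni1 was read by 3 probe sets that disagreed. On array A, 98561_at read 766, 1377 and 989 in GFP-positive cells and 1713, 1703 and 2001 in GFP-negative cells, a difference of -0.81 ± 0.46. On array C, 167195_f_at read 2067, 684 and 2492 in GFP-positive cells and 3630, 3591 and 6045 in GFP-negative cells, a difference of -1.47 ± 0.46. The third, 167196_f_at, ran the other way, with 1044, 892 and 725 in GFP-positive cells and 366, 415 and 277 in GFP-negative cells, a difference of 1.26 ± 0.50. None of the 3 passed (limma adjusted p = 1 each), and both array C probe sets carry the family suffix. For Tnnt3 the array A probe set 92885_at overlapped between the fractions, from 22 to 106 in GFP-positive and from 60.1 to 181 in GFP-negative cells. Its array C probe set 167336_at was higher in GFP-positive cells, at 215, 176 and 333, against 121, 121 and 125 in GFP-negative cells. Every Tnnt3 value was below its array's median, and neither probe set was tested.

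Myl1 (92541_at) read 378, 596 and 297 in the GFP-positive cells of Exp99, Exp101 and Exp103, against 1480, 2675 and 2012 in the GFP-negative cells. The difference of -2.21 ± 0.46 was 4.62-fold lower in GFP-positive cells (limma adjusted p = 1, unadjusted p = 0.000427). Its array B probe set, 164432_at, overlapped between the fractions and was below its array's median in every sample. Mylpf on array C (170347_f_at) read 192, 293 and 282 in GFP-positive cells, against 1290, 1170 and 1594 in GFP-negative cells. That difference, -2.27 ± 0.45, had the smallest unadjusted p of the members, 0.000305. On array A, Mylpf 92881_at read 381, 534 and 303 in GFP-positive cells and 1197, 1243 and 1094 in GFP-negative cells, again without overlap, at -1.50 ± 0.61. The dim array A probe set 162101_f_at lay between 10.7 and 17 in GFP-positive cells and between 10.3 and 151 in GFP-negative cells, and was not tested.

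Myog (103053_at) read 356, 285 and 583 in GFP-positive cells and 348, 567 and 959 in GFP-negative cells. The fractions overlapped, and the difference was -0.52 ± 0.61. Ckm did not follow the filament genes. Its array A probe set 160175_at read 649, 697 and 501 in GFP-positive cells and 631, 664 and 600 in GFP-negative cells, a difference of -0.05 ± 0.48. The array C probe sets 170247_r_at and 171149_r_at differed by 0.42 ± 0.35 and 0.35 ± 0.73, and the fractions overlapped in all 4 Ckm probe sets.

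Each day 7 experiment gave the same order of the fractions. GFP-positive cells lay below GFP-negative cells in 12, 13 and 14 of the 19 probe sets in Exp99, Exp101 and Exp103, with median differences of -0.80, -0.92 and -0.99. For Myl1 the differences were -1.88, -2.11 and -2.63. For Actc1 101028_i_at they were -3.32, -3.82 and -5.49, and for Tnnc1 they were -2.39, -1.64 and -2.88. Exp103 thus had the most negative difference for each of these genes.

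**Figure D1:**
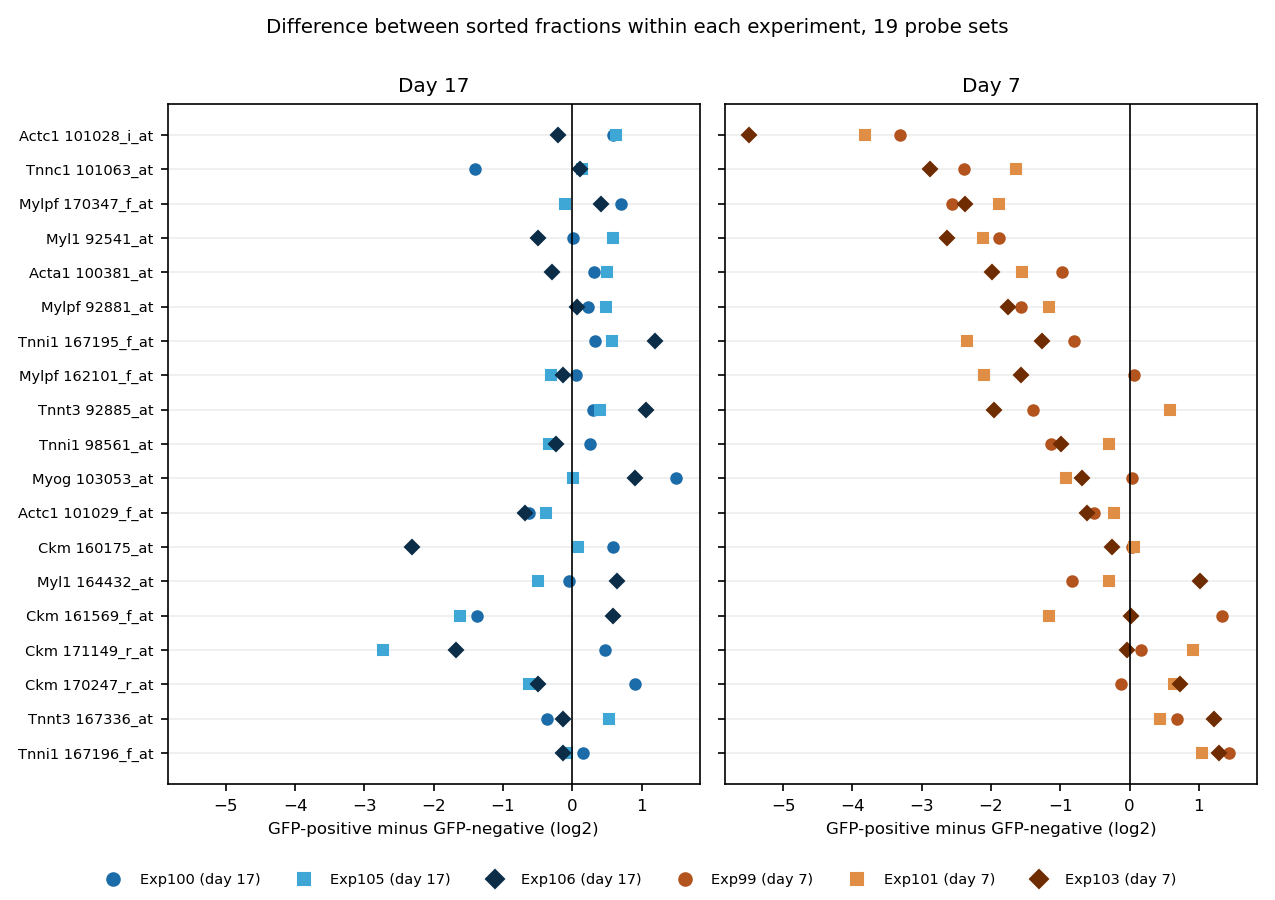
GFP-positive minus GFP-negative log2 difference (horizontal axis) of each of the 19 member probe sets (rows) within each experiment (symbols), at day 17 on the left and at day 7 on the right. At day 7 the points of Actc1 101028_i_at, Tnnc1, Myl1 92541_at, Acta1, Mylpf 92881_at and Mylpf 170347_f_at all lie below 0, and the medians by experiment at day 17 are 0.26, 0.01 and -0.13.

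The unsorted day 7 culture lay close to its GFP-negative fraction. It lay above the GFP-positive fraction in 11, 10 and 12 of the 12 array A probe sets in Exp99, Exp101 and Exp103, with medians of 1.0, 1.19 and 1.56 on the log2 scale. Against the GFP-negative fraction it was higher in 5, 6 and 6 of 12, with medians of -0.04, 0.08 and 0.01. Myl1 read 1444, 1922 and 1975 in unsorted cells, and Actc1 101028_i_at read 905, 1372 and 899. Acta1 read 1584, 1984 and 1432 there, and Tnnc1 read 772, 743 and 859. Set against the mean of the sorted fractions, unsorted cells differed by 2.30 ± 0.56 for Actc1 101028_i_at and by 0.93 ± 0.31 for Myl1. limma called 0 members and 0 of 7455 probe sets (0%) in that comparison, with 2 members and 59 of all probe sets at an unadjusted p under 0.05.

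**Figure D2:**
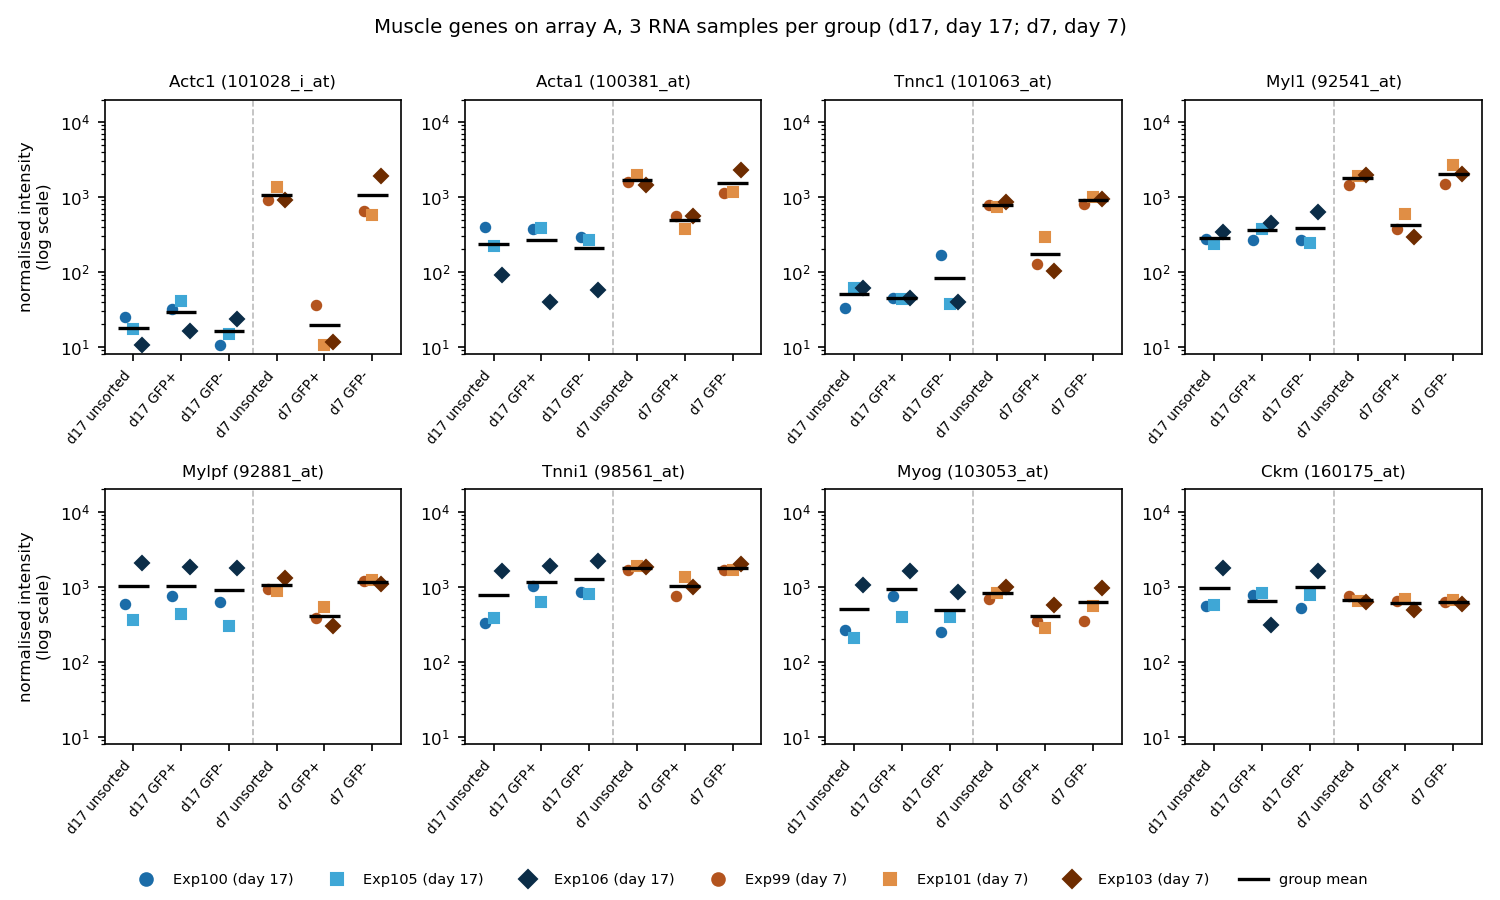
Normalised intensity (log scale) of 8 member probe sets on array A in each RNA sample (symbols, by experiment), with the mean of each group of 3 as a bar and day 17 groups left of day 7 groups. The upper row (Actc1, Acta1, Tnnc1, Myl1) is high in unsorted and GFP-negative cells at day 7 and low elsewhere, while in the lower row Exp106 is high at day 17 for Mylpf, Tnni1 and Myog, and for Ckm in 2 of 3 kinds of cells.

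At day 17 no member separated the fractions across experiments. Of 19 probe sets 9 differed by less than 0 and 10 by more, with a median of 0.01 against -0.01 over all probe sets tested, and the fractions overlapped in all 19, while 5.48% of all probe sets on the arrays were higher and 6.19% lower without overlap. limma called 0 members in either direction, while it called 219 of 22099 probe sets lower in GFP-positive cells (0.991%) and 63 higher (0.285%). No member had an unadjusted p under 0.05, against 2334 of all probe sets. Actc1 101028_i_at read 31.9, 40.6 and 16.2 in the GFP-positive cells of Exp100, Exp105 and Exp106 and 10.5, 15.1 and 23.7 in the GFP-negative cells. Myl1 read 268, 379 and 444 in GFP-positive cells and 265, 243 and 638 in GFP-negative cells. Tnnc1 read 44.3, 44.2 and 45.4 in GFP-positive cells and 171, 37 and 39.8 in GFP-negative cells. GFP-positive cells were lower in 5, 9 and 11 of the 19 probe sets in Exp100, Exp105 and Exp106. No member was called between unsorted day 17 cells and the mean of their fractions. There Tnni1 98561_at (-0.86 ± 0.45, adjusted p = 0.4) was called with experiment as a block (limma adjusted p = 0.018), which moved the count of all probe sets called from 119 of 7455 (1.6%) to 920. The unsorted values of that probe set, 330, 383 and 1631, each lay below both fractions of the same experiment.

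The difference between fractions was compared between the days. GFP-positive minus GFP-negative, it was -2.27 at day 7 and 0.33 at day 17 for Mylpf 170347_f_at, and -2.21 and 0.03 for Myl1. For Tnni1 167195_f_at it was -1.47 and 0.70, and for Actc1 101028_i_at -4.21 and 0.33. The gap was thus narrower at day 17 for each. Day 17 minus day 7 came to 2.61 ± 0.64, 2.24 ± 0.65, 2.17 ± 0.64 and 4.55 ± 1.63 for these probe sets, in that order. None of them passed (limma adjusted p = 0.21, 0.368, 0.403 and 0.613), and limma called 49 of 22099 probe sets (0.222%). With experiment as a random block Mylpf 170347_f_at was called (adjusted p = 0.0358), while all probe sets called rose from 49 to 222. Actc1 101028_i_at was called without the filter (adjusted p = 0.0471, with 0.0518% of all probe sets called) and without a variance trend (adjusted p = 0.023, among 32 probe sets).

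In unsorted cultures 4 of the 12 array A probe sets fell at day 17 relative to day 7, and none rose. They were Actc1 101028_i_at, Tnnc1, Acta1 and Myl1. limma called 199 of 7455 probe sets lower (2.67%) and 227 higher (3.04%) in this comparison. Actc1 101028_i_at, Tnnc1 and Acta1 were brighter than the median only in unsorted and GFP-negative samples of day 7. They met the filter through groups in which they were high, so the count of 4 is by itself no support for a fall. With no probe set filtered out, limma called 322 of 12422. The adjusted p was then 2.81e-05 for Actc1 101028_i_at, 0.00042 for Tnnc1, 0.0293 for Acta1 and 0.00174 for Myl1. The median of the 12 was -1.37, against -0.09 over all probe sets tested, and 7 of 12 did not overlap and were lower, as were 15.8% of all array A probe sets.

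Actc1 101028_i_at read 25.4, 17.4 and 10.6 in the unsorted day 17 samples of Exp100, Exp105 and Exp106, against 905, 1372 and 899 in the unsorted day 7 samples of Exp99, Exp101 and Exp103. It fell by 4.44 ± 0.65 on the log2 scale (SE, limma adjusted p = 0.00134), by 5.39 with an added constant 4 times smaller and by 3.0 with one 4 times larger. Tnnc1 read 33.3, 60.3 and 61 at day 17, against 772, 743 and 859 at day 7, and fell by 3.32 ± 0.52 (adjusted p = 0.00178). Acta1 read 404, 224 and 90.3 at day 17, against 1584, 1984 and 1432 at day 7, and fell by 2.82 ± 0.66 (adjusted p = 0.021). The Acta1 call was lost when unsorted Exp106 was left out (-2.33, adjusted p = 0.0972) or any single unsorted day 7 sample was (adjusted p from 0.0673 to 0.0831), but not when all of Exp106 was (adjusted p = 0.00046). Myl1 read 275, 238 and 346 at day 17, against 1444, 1922 and 1975 at day 7, and fell by 2.51 ± 0.36 (adjusted p = 0.00114), the smallest adjusted p of the members. These 4 probe sets were below their array's median in every unsorted day 17 sample and above it in every unsorted day 7 sample.

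The other tested array A members moved less or were split by Exp106. Tnni1 98561_at read 330, 383 and 1631 at day 17 and 1677, 1919 and 1865 at day 7, with a difference of -1.55 ± 0.52 (limma adjusted p = 0.0993). Without Exp106 that difference was -2.26 (adjusted p = 8.59e-05), and it was called with a random block as well (adjusted p = 0.0474, among 380 probe sets). Mylpf 92881_at read 590, 359 and 2120 at day 17 and 950, 890 and 1313 at day 7, at -0.41 ± 0.63, and -1.11 without Exp106 (adjusted p = 0.0437). Myog read 265, 209 and 1050 at day 17 and 688, 832 and 997 at day 7, at -1.01 ± 0.60, and -1.69 without Exp106 (adjusted p = 0.0169). Ckm 160175_at read 558, 576 and 1795 at day 17 and 767, 654 and 624 at day 7, at 0.29 ± 0.46, and -0.25 without Exp106. Leaving out Exp106 raised the members called from 4 to 7 of 12, and all probe sets called from 426 to 930. Actc1 101029_f_at did not overlap between the days, at -0.64 ± 0.27, and did not pass (adjusted p = 0.18).

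In GFP-negative cells 1 probe set each of Myl1 and Mylpf fell at day 17 relative to day 7. limma called 2 members, Myl1 at -2.42 ± 0.46 (adjusted p = 0.0484) and Mylpf 170347_f_at at -2.45 ± 0.45 (adjusted p = 0.0457), against 47 of 22099 probe sets lower (0.213%) and 49 higher (0.222%). Both lay near the threshold: leaving out single samples gave 0 to 4 called members and adjusted p from 0.0321 to 0.216 for Myl1, and Myl1 stayed called only when that sample was one of Exp106. With any 1 of the 3 day 7 GFP-negative samples left out, Mylpf 170347_f_at no longer met the brightness filter. This comparison and that of the fractions at day 7 share the day 7 GFP-negative samples. The GFP-negative Myl1 values were 265, 243 and 638 at day 17, against 1480, 2675 and 2012 at day 7, and those of Mylpf 170347_f_at were 157, 223 and 297, against 1290, 1170 and 1594. The remaining probe sets of these genes overlapped between the days. Mylpf 92881_at differed by -0.71 ± 0.61 (limma adjusted p = 0.71), while Mylpf 162101_f_at (-1.13) and Myl1 164432_at (-0.19) were not tested. Mylpf 170347_f_at met the filter through the day 7 GFP-negative samples alone, the group in which it was high. The count of 2 is therefore by itself no support for a fall. Differences of similar or larger size did not pass for Actc1 101028_i_at (-4.28 ± 1.15, adjusted p = 0.174), Tnnc1 (-3.24 ± 0.78, adjusted p = 0.12), Acta1 (-2.84 ± 0.74, adjusted p = 0.158) and Tnni1 167195_f_at (-2.23 ± 0.46, adjusted p = 0.0616). Tnni1 98561_at (-0.62 ± 0.46) and 167196_f_at (0.46 ± 0.50) overlapped between the days. All 4 Ckm probe sets overlapped as well, with differences above 0, from 0.16 to 0.48. Without the filter Actc1 101028_i_at (adjusted p = 0.00299) and Tnnc1 (adjusted p = 0.0236) were called and Myl1 was not (adjusted p = 0.0626). All probe sets called then came to 57, against 96 in the main fit. Without a variance trend Actc1 101028_i_at (adjusted p = 0.00239), Tnnc1 (adjusted p = 0.0115), Myl1 and Mylpf 170347_f_at were all called, among 87 probe sets. Without Exp106 Acta1 was called too (-2.24, adjusted p = 0.0286), while all probe sets called rose from 96 to 389. In all, 8 of the 19 did not overlap and were lower at day 17, as were 9.43% of all probe sets, and the median was -0.71 against -0.04 over all probe sets tested.

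The GFP-positive fraction gave no called member between the days, although limma called 704 of 22099 probe sets lower (3.19%) and 367 higher (1.66%). Its median over the 19 was -0.12, against -0.06 over all tested, and 2 of the 19 did not overlap and were lower (11.6% of all probe sets were). Of the 14 tested members 1 (Actc1 101029_f_at, -0.86 ± 0.27, limma adjusted p = 0.102) had an unadjusted p under 0.05. Myl1 read 268, 379 and 444 at day 17 and 378, 596 and 297 at day 7 in GFP-positive cells, and Mylpf 170347_f_at read 276, 204 and 406 at day 17 and 192, 293 and 282 at day 7. Both sets of values overlap. Tnnc1 did not overlap, at 44.2 to 45.4 at day 17 and 102 to 297 at day 7 (-1.32 ± 0.78, limma adjusted p = 0.393). Acta1 differed by -1.16 ± 0.74 (adjusted p = 0.431) and overlapped. Of the 19 differences 13 lay below 0 and 6 above. Whether the GFP-negative change exceeded the GFP-positive one is the same quantity as the difference of the fraction effects given above, which did not pass.

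**Figure D3:**
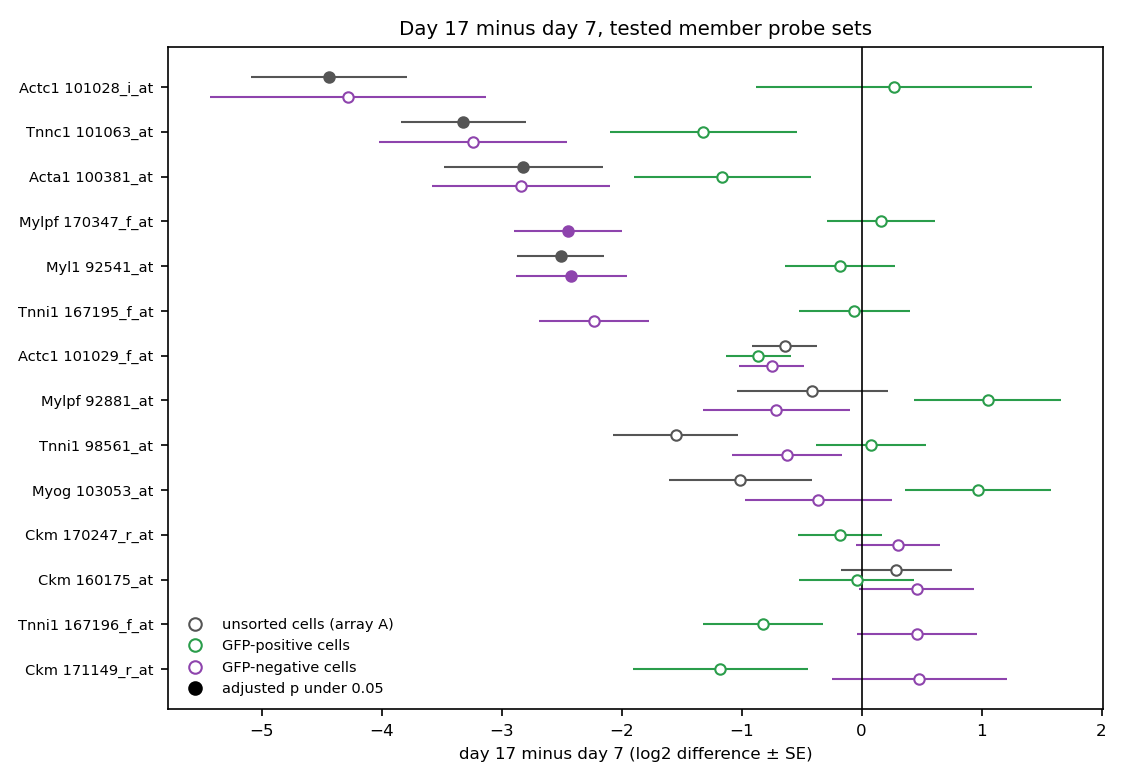
Day 17 minus day 7 log2 difference with its SE (horizontal axis) for the 14 member probe sets tested in sorted cells (rows), in unsorted, GFP-positive and GFP-negative cells (colours), with filled points where the limma adjusted p is under 0.05. The filled points are 4 in unsorted and 2 in GFP-negative cells, all below 0, and no GFP-positive point is filled.

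The Mylpf probe sets differed in how Exp106 stood out. On array A, 92881_at read 2120, 1868 and 1773 in the unsorted, GFP-positive and GFP-negative cells of Exp106, and from 302 to 749 in those of Exp100 and Exp105. On array C, 170347_f_at read 406 in the GFP-positive fraction and 297 in the GFP-negative fraction of Exp106, and from 157 to 276 in the sorted samples of Exp100 and Exp105. Against the mean of Exp100 and Exp105, Exp106 was higher for Mylpf 92881_at by 2.13, 1.66 and 1.94 in the 3 kinds of cells, for Tnni1 98561_at by 2.10, 1.19 and 1.39 and for Myog by 2.01, 1.51 and 1.35. For Acta1 it was lower, at -1.45, -2.52 and -1.81. Exp106 was the highest day 17 experiment in all 3 kinds of cells for 5 of 12 member probe sets, 4 of them among the 9 tested, and for 24.1% of the 7455 tested probe sets.

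**Figure D4:**
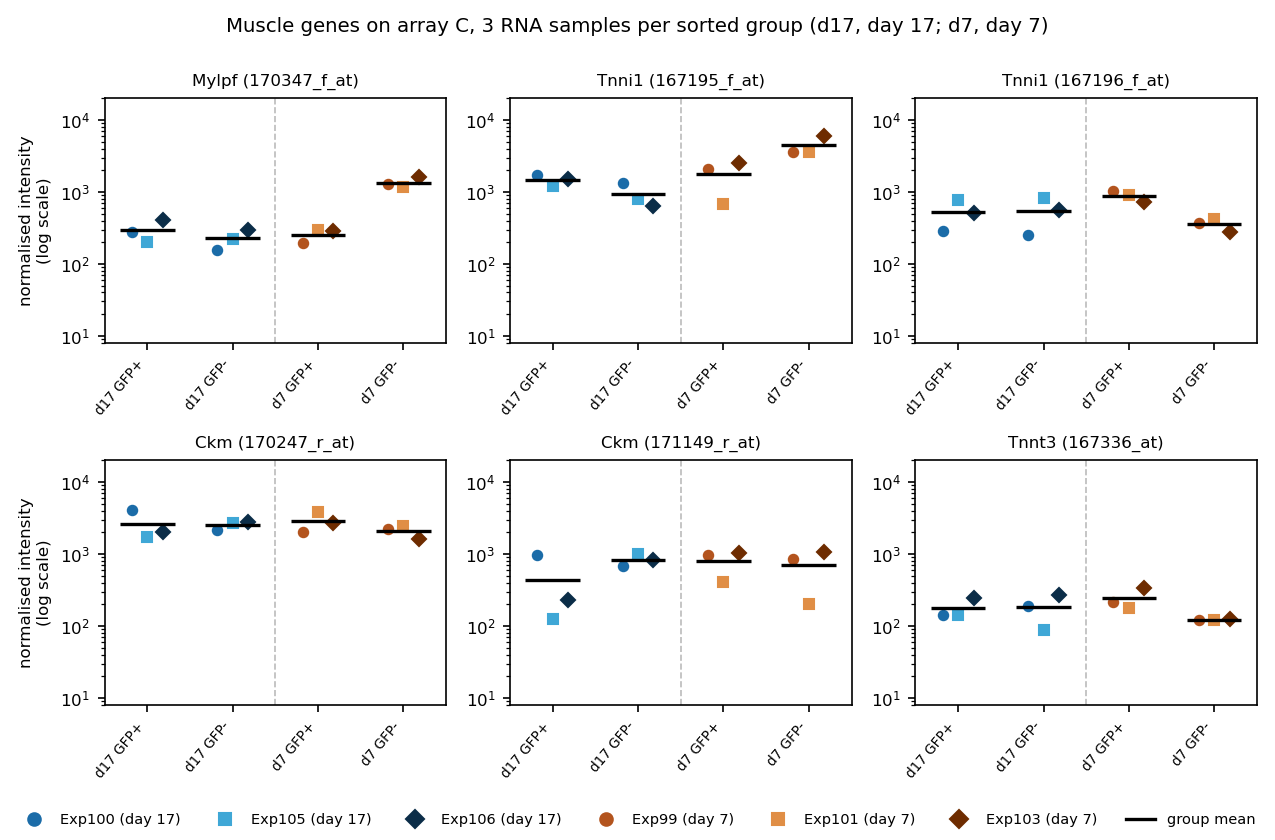
Normalised intensity (log scale) of the 6 member probe sets on array C in each sorted RNA sample (symbols, by experiment), with the mean of each group of 3 as a bar, day 17 left of day 7 and GFP-positive left of GFP-negative. Mylpf and Tnni1 167195_f_at are highest in day 7 GFP-negative cells, Tnni1 167196_f_at is lower there than in day 7 GFP-positive cells, and the Ckm fractions overlap.

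A wider list of 92 skeletal muscle genes, without the members, was read through 1 probe set a gene. The arrays held 80 of them, and 31 were tested in sorted cells and 29 on array A. At day 7, 0 of 31 were called, with a median of -0.02 against 0.00 over all tested. The largest differences there were those of Myl4, an atrial and embryonic myosin light chain (-0.70 ± 0.37, probe set 100828_at), the fusion gene Mymk (0.67 ± 0.92), the calcium buffer Pvalb (-0.63 ± 0.47) and Myoz1 of the Z disc (-0.58 ± 0.96). By class, the medians at day 7 were -0.10 for 3 thick filament genes, -0.03 for 5 thin filament genes, -0.11 for 4 genes of the Z disc and titin, -0.04 for 5 regulators, 0.11 for 6 genes of excitation and calcium, -0.03 for 6 metabolic genes and 0.15 for 2 membrane genes. Between the days no gene of the list fell in any kind of cell through the probe set read for it. Myl4 has a second probe set, 160487_at, outside that reading, whose means were lower at day 17 than at day 7 (185 against 1310 in unsorted cells, 288 against 1390 in the GFP-negative fraction). In unsorted cells 2 of 29 rose, the transcription factors Mef2c (2.23 ± 0.46, limma adjusted p = 0.0106) and Mef2a (0.79 ± 0.19, adjusted p = 0.0272), which many cell types also make. In GFP-positive cells 4 of 31 rose at day 17: Mef2c (3.40 ± 0.49, adjusted p = 0.00242), the chaperone Cryab (1.51 ± 0.31, adjusted p = 0.0164), Mef2d (1.50 ± 0.39, adjusted p = 0.0473) and Mef2a (1.29 ± 0.20, adjusted p = 0.00303). In GFP-negative cells 0 of 31 were called. Cox6a2, a muscle subunit of cytochrome oxidase, was the only gene of the list called between fractions, at day 17, where it was higher in GFP-positive cells (2230) than in GFP-negative cells (238), by 2.99 ± 0.59 (adjusted p = 0.0304).

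Other markers were read beside the members. Of 8 myogenic markers, 7 were on array A, Myog among them. Their sums at day 17 were 1460 to 6420 in unsorted, 2060 to 7790 in GFP-positive and 1510 to 5970 in GFP-negative cells, with Exp106 the highest in each. At day 7 they were 2260 to 2630 in unsorted, 1590 to 1910 in GFP-positive and 1870 to 2700 in GFP-negative cells. Of the 8 myogenic markers 3 were tested in sorted cells, with 0 called and a median of -0.02 between the fractions at day 7, and the single genes were split. Chrna1, the muscle acetylcholine receptor subunit, was below the array's median everywhere and read 40.6 to 76 in GFP-positive and 238 to 286 in GFP-negative cells at day 7. Cdh15, a cadherin of satellite cells, read 87.4 to 178 in the GFP-positive fraction and 26.5 to 154 in the GFP-negative fraction at day 7, and Mymk read 347 to 2530 in the GFP-positive fraction and 240 to 1260 in the GFP-negative fraction, both with the higher mean in GFP-positive cells. Myod1 read 804 to 957 in GFP-positive and 751 to 956 in GFP-negative cells at day 7. Of 8 heart muscle markers, Myh6, Myl7, Tnni3 and Ryr2 were below the median on all 18 A arrays. The others exceeded it on some arrays, Nppb on only 1. Nppa did so on 2 or 3 of 3 arrays in every group. At day 7 Gata4 read 654 to 1090 in the GFP-negative fraction, above the median on 3 arrays. Its GFP-positive values were 266 to 732, above it on 1 array. Pln, on array B, exceeded the median on 2 of 3 GFP-positive arrays at each day. Among GFP-negative arrays it did so on 1 at day 17 and 0 at day 7. Of 3 tested in sorted cells, 0 were called between the fractions at day 7. The heart sums on array A (7 genes) were 1410 to 2350 in GFP-positive and 2040 to 2240 in GFP-negative cells at day 7. Smooth muscle and myofibroblast sums (7 of 9 genes) were 17600 to 18600 in GFP-positive and 41600 to 56200 in GFP-negative cells at day 17, and 56900 to 64600 in GFP-positive and 49800 to 64200 in GFP-negative cells at day 7.

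Macrophage marker sums also differed between the groups. Over 11 genes they were 158000 to 209000 in unsorted, 15400 to 67200 in GFP-positive and 49100 to 115000 in GFP-negative cells at day 17. At day 7 they were 13800 to 34600 in unsorted, 3060 to 3690 in GFP-positive and 11000 to 29300 in GFP-negative cells, with 0 of the 10 tested genes called between the fractions. In unsorted cells 10 of 11 macrophage genes rose at day 17 (median 2.93), the opposite direction to the 4 called muscle probe sets. Their part in the muscle results was not tested. Of 7 osteoblast markers, 5 were on array A, and their sums were higher at day 17. They were 203000 to 227000 in unsorted, 207000 to 257000 in GFP-positive and 149000 to 169000 in GFP-negative cells at day 17. At day 7 they were 89100 to 122000 in unsorted, 51700 to 97800 in GFP-positive and 43800 to 122000 in GFP-negative cells. Of the 4 tested, 3 rose at day 17 in unsorted cells (median 3.89), 3 in the GFP-positive fraction (median 4.20) and 2 in the GFP-negative fraction (median 2.43), and their part in the muscle results was not tested either.

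**Figure D5:**
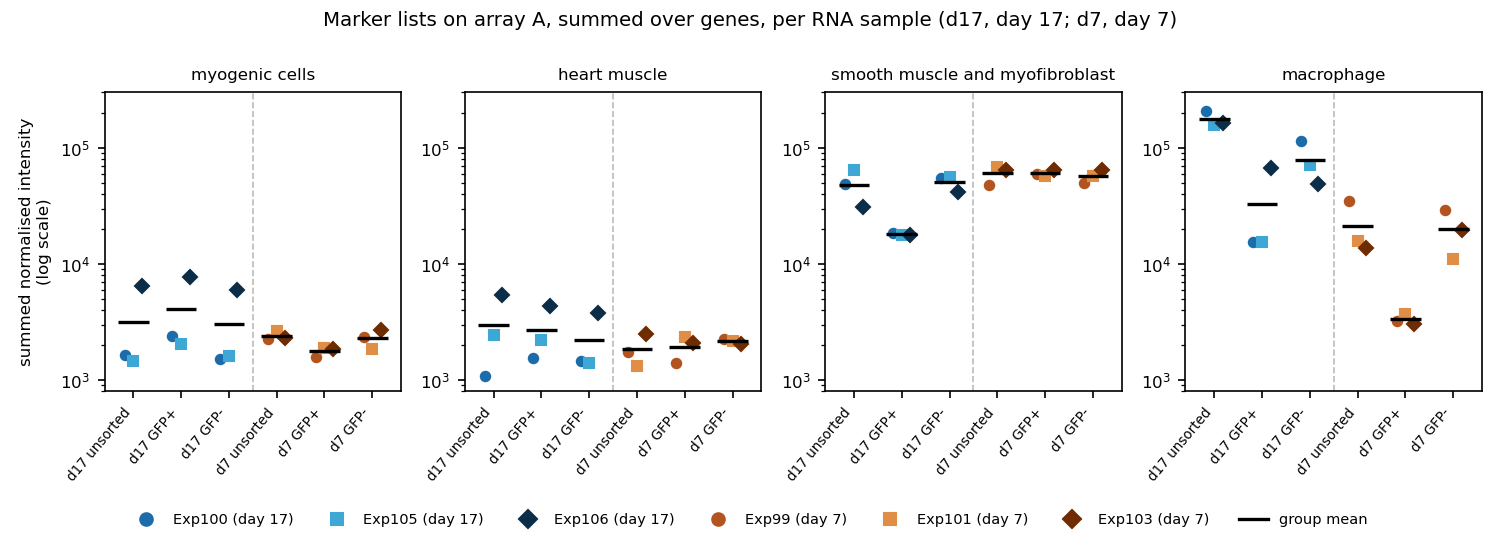
Summed normalised intensity (log scale) of 4 marker lists on array A in each RNA sample (symbols, by experiment), with group means as bars and day 17 left of day 7. Macrophage sums at day 7 are lower in GFP-positive than in GFP-negative and unsorted cells, smooth muscle sums overlap between the day 7 groups, and Exp106 is high for the myogenic and heart lists at day 17.

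The members were not one pattern. On array A, over 18 RNA samples and with each member's brightest tested probe set, Pearson's r with the mean of the other members was 0.89 for Myl1, 0.76 for Tnnc1, 0.76 for Tnni1, 0.50 for Mylpf, 0.46 for Acta1, 0.42 for Myog, 0.42 for Actc1 101029_f_at and 0.01 for Ckm. Within the 9 day 7 samples it was 0.94 for Myl1, 0.93 for Tnnc1, 0.92 for Tnni1, 0.91 for Acta1 and 0.88 for Mylpf. There it was 0.63 for Actc1 101029_f_at and for Myog, and 0.21 for Ckm. Without Exp106 (15 samples) it was 0.95 for Myl1, 0.94 for Acta1, 0.92 for Tnnc1, 0.88 for Tnni1 and 0.79 for Mylpf. In those samples it was 0.69 for Myog, 0.62 for Actc1 101029_f_at and -0.00 for Ckm. Of 3383 other probe sets that varied enough, another Myl4 probe set (160487_at) than the one in the wider list was the most like the members' mean profile, at r = 0.76 over 18 samples and 0.98 within day 7. At day 17 it averaged 185 in unsorted cells, 227 in the GFP-positive fraction and 288 in the GFP-negative fraction. At day 7 it averaged 1310 in unsorted cells, 377 in the GFP-positive fraction and 1390 in the GFP-negative fraction. The next were Mtmr9 (0.73), Foxp1 (0.72), Cds2 (0.71), Agfg1 (0.71), Nr2f2 (0.7), Rhoq (0.69) and Acvr2a (0.69), whose r within day 7 ran from 0.14 to 0.84. The samples share experiments and sorts, so these values describe the arrays only.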

How the data were processed

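The deposited values were linear intensities, 1 whole number of at least 10 per probe set and array, from 44 Affymetrix arrays (18 of type A, 13 each of B and C), per the deposited value tables; the probe summary and array scaling are not given in the sources used here. No per-sample column was left unused (0). Intensities were quantile normalised within array type as log2(intensity + 32). Group means were fitted in R 4.3.3 with limma 3.58.1 (lmFit, eBayes with a variance trend), with 12 sorted samples on all arrays or 18 samples on array A, and Benjamini-Hochberg adjustment over all probe sets tested. There were 8 comparisons, each with n = 3 per group, and the number of arrays limits the precision. The pipeline was tested on simulated data. Probe sets were named through the platform annotation and RefSeq symbols: 29131 of 36701 had 1 gene, 724 several and 6846 none.

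All 19 member probe sets are named. From the wider list, genes that were called are named, or the 4 largest differences where none was called. The 8 genes most like the members were chosen by r. The members and lists were chosen with earlier results of these data known. Titles share an experiment name between fractions, which pairs them: deviations from group means correlated between fractions at 0.26 to 0.69 on array A, 0.11 to 0.51 on B and 0.02 to 0.43 on C. Alternatives were constants 4 times smaller and 4 times larger, no filter, values as deposited, no variance trend, only the groups compared, each sample left out, experiment as a fixed or random block (statmod 1.5.0), Exp106 left out, and, added after seeing the data, a variance trend per array type.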

Additional observations from a re-analysis of the deposited data

Results flagged for a closer look

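For 2 probe sets every day 17 experiment put GFP-positive cells above GFP-negative cells and every day 7 experiment put them below. For Mylpf 92881_at the difference between fractions was 0.23, 0.48 and 0.07 in Exp100, Exp105 and Exp106 and -1.57, -1.17 and -1.75 in Exp99, Exp101 and Exp103, and day 17 minus day 7 came to 1.76 ± 0.87 (limma adjusted p = 0.903). The Tnni1 167195_f_at values by experiment, in that order, were 0.33, 0.57 and 1.19 at day 17, and -0.80, -2.34 and -1.27 at day 7, with 2.17 ± 0.64 between the days (limma adjusted p = 0.403). Neither test of the difference itself passed. How many of all probe sets changed order in this way is not given here, so the 2 are described as values only.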

How the results depend on the processing

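Of 45 member differences, 995 values under alternatives were computed, of which 937 kept direction and side of the threshold, 29 lost a call, 22 gained one and 7 changed sign. Counts of called members moved as follows. For GFP-positive against GFP-negative cells at day 7 the count of 0 became 1 without the filter and 1 without a variance trend, and for the difference of the fraction effects 0 became 1 under each of those and under the random block. For GFP-negative cells between the days the count of 2 became 0 with a constant 4 times smaller, 1 with values as deposited, 4 without a variance trend, 0 with only the groups compared, 1 with a variance trend per array type, and 0 to 4 with single samples left out, while 3 were called without the filter (Actc1 101028_i_at, Tnnc1 and Mylpf 170347_f_at) and 3 without Exp106 (Acta1, Myl1 and Mylpf 170347_f_at). The Myl1 call there was lost without the filter (adjusted p = 0.0626), with a constant 4 times smaller (0.0524), with values as deposited (0.104) and with only the groups compared (0.117). It was also lost without any of GFP-negative Exp99, Exp100, Exp101, Exp103 or Exp105 and of GFP-positive Exp99, Exp100, Exp101, Exp103 or Exp105, and the Mylpf 170347_f_at call without any of GFP-positive Exp99, Exp100, Exp101, Exp103 or Exp105 and of GFP-negative Exp100, Exp105 or Exp106. For unsorted cells between the days 4 became 7 without Exp106, 5 with the random block (Tnni1 98561_at, adjusted p = 0.0474) and 3 to 4 with single samples left out. For unsorted against sorted cells at day 17 the count of 0 became 1 with experiment as a replicate block, 1 with the random block and 1 without Exp106, and at day 7 it became 1 without a variance trend. Neither block changed another member call. Signs changed for Ckm 160175_at at day 7 (leave-one-out range -0.14 to 0.09) and in unsorted cells (-0.25 without Exp106, leave-one-out range -0.25 to 0.57), for Ckm 171149_r_at at day 7 (-0.35 to 0.77) and in GFP-negative cells (-0.21 to 0.91), for Mylpf 92881_at in unsorted cells (-1.11 to 0.12) and for Myog in GFP-negative cells (-0.81 to 0.02), none of them called with all samples in the fit. The cause was not tested. Counts over all probe sets ranged from 24 to 1010 around 282 for the fractions at day 17 (710 with the block), 0 to 4 around 0 at day 7, 0 to 222 around 49 for their difference, 433 to 2347 around 1071, 17 to 389 around 96 and 144 to 930 around 426 for the days in GFP-positive, GFP-negative and unsorted cells, and 1 to 920 around 119 and 0 to 1 around 0 for unsorted against sorted cells at day 17 and day 7. Values near 10 lie at the bottom of the deposited scale and carry no order.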

Other observations

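Unsorted RNA of Exp106 was also on arrays B and C, with no second unsorted sample there, and entered no comparison. Tnni1 167195_f_at read 2993 in that sample, above both sorted fractions of Exp106 (1498 GFP-positive, 637 GFP-negative). Mylpf 170347_f_at read 316 there, between 406 in its GFP-positive and 297 in its GFP-negative fraction, and Tnni1 167196_f_at read 767, against 504 and 554. The B array probe set of Myl1 read 52.3, below the array's median, as in the sorted samples.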
